A study of Mus musculus with 10 samples.

Results

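The genes described here encode the proteins of the cytosolic ribosome, the particle that translates messenger RNA. They were chosen by symbol: Rpl or Rps followed by a number and at most one further letter (a, l or x), or Rplp0, Rplp1 and Rplp2. Rps4x, the ribosomal S6 kinases and rows named as pseudogenes were left out, whatever their values. The rule kept 73 of the 13578 genes of the table. Of these, 43 belong to the large subunit and 30 to the small subunit. Rpl26 and the paralogs Rpl3l, Rpl10l, Rpl39l and Rps4l had no row and were not analysed here.

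A ribosome holds about equal numbers of nearly all of its proteins, so cells make these proteins in step with one another and with ribosomal RNA. Many of their messenger RNAs begin with a C followed by a run of pyrimidines, the TOP motif, through which mTOR and Larp1 control their translation. A growing embryonic gonad needs many ribosomes, and the transcripts of these genes are among the most abundant of most cells.

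The RNA came from the somatic cells of female gonads, 1 mouse embryo per library, collected on embryonic day 13.5. Every embryo was Gulo-/- on a C57BL/6 background and thus could not make vitamin C, and all cells were the Oct4-negative fraction of a sort. In the group called supplied (5 embryos), the dams received vitamin C at a physiological level, and in the group called withdrawn (5 embryos) it was taken away in early gestation. Gulo had no row, so the genotype could not be checked in these data, and no label says which embryos shared a litter. P-values therefore measure only the spread between these samples.

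The authors' values are rlog values, a log2 scale that draws weakly expressed genes towards their mean and is not scaled to transcript length. The depth of the libraries is unknown. Each value below is an rlog level, and each difference is withdrawn minus supplied on that scale. In whole sorted fractions, fewer cells of a type and less RNA per cell cannot be told apart. All 12 markers of pregranulosa and supporting cells, Foxl2 and Nr5a1 among them, had rows, with levels from 9.27 to 13.09. Of 10 germ cell markers, 3 had rows (Nanos3, Tfap2c and Tdrd1, 4.36 to 6.06), and Pou5f1, Ddx4 and Dazl had none. Markers of stroma (7 of 7), endothelium (6 of 6), mesonephros (6 of 6), macrophages (6 of 7), red blood cells (6 of 8) and neural cells (4 of 6) were also present. The mean over the stromal markers ran from 13.14 to 13.35 in the supplied and from 13.34 to 13.48 in the withdrawn embryos. Over the neural markers it ran from 6.89 to 9.29 in the supplied and from 6.94 to 7.09 in the withdrawn embryos. The part of these cell types in the members' values was not tested. In withdrawn embryo 1, which stands apart below, the mean marker levels lay within the range of the other embryos for these lists other than endothelium. Its mean over the 6 endothelial markers, 9.70, was the lowest of the withdrawn range of 9.70 to 9.86, against 9.82 to 10.05 in the supplied embryos.

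No ribosomal protein gene changed past the test's threshold between supplied and withdrawn embryos. None of the 73 passed an adjusted p of 0.05 in limma with Benjamini-Hochberg adjustment over all genes, and 3 genes of the whole table did (0.0221%). Adjusted p-values of the members ran from 0.879 to 0.999. At an unadjusted p under 0.05, 9 members were higher, beside 2.45% of all genes, and 1 was lower, beside 2.84%. The higher ones were Rpl10, Rpl27a, Rpl31, Rpl38, Rplp2, Rps16, Rps25, Rps28 and Rps29, and the lower one was Rpl29. Differences ran from -0.22 for Rpl29 to 0.16 for Rpl31. In linear terms that is 0.857 to 1.12 times the supplied level. The 95% interval of the member with the widest one, Rpl29, reached to -0.44, and the median interval extended 0.12 to each side of its estimate.

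Most members nevertheless lay on one side of 0. The difference was above 0 in 57 of 73 members, beside 50.2% of all genes, with a median of 0.043 against 0.00021 over all genes. Both subunits did so: 34 of 43 large subunit genes (median 0.043) and 23 of 30 small subunit genes (median 0.045). This lean depended on single embryos. Without withdrawn embryo 1, 35 of 73 members were above 0, beside 49.9% of all genes, and the median was -0.0022. Without supplied embryo 5, 44 were above 0, beside 50.6% of all genes, and the median was 0.014. Without supplied embryo 4 the median was 0.028.

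**Figure D1:**
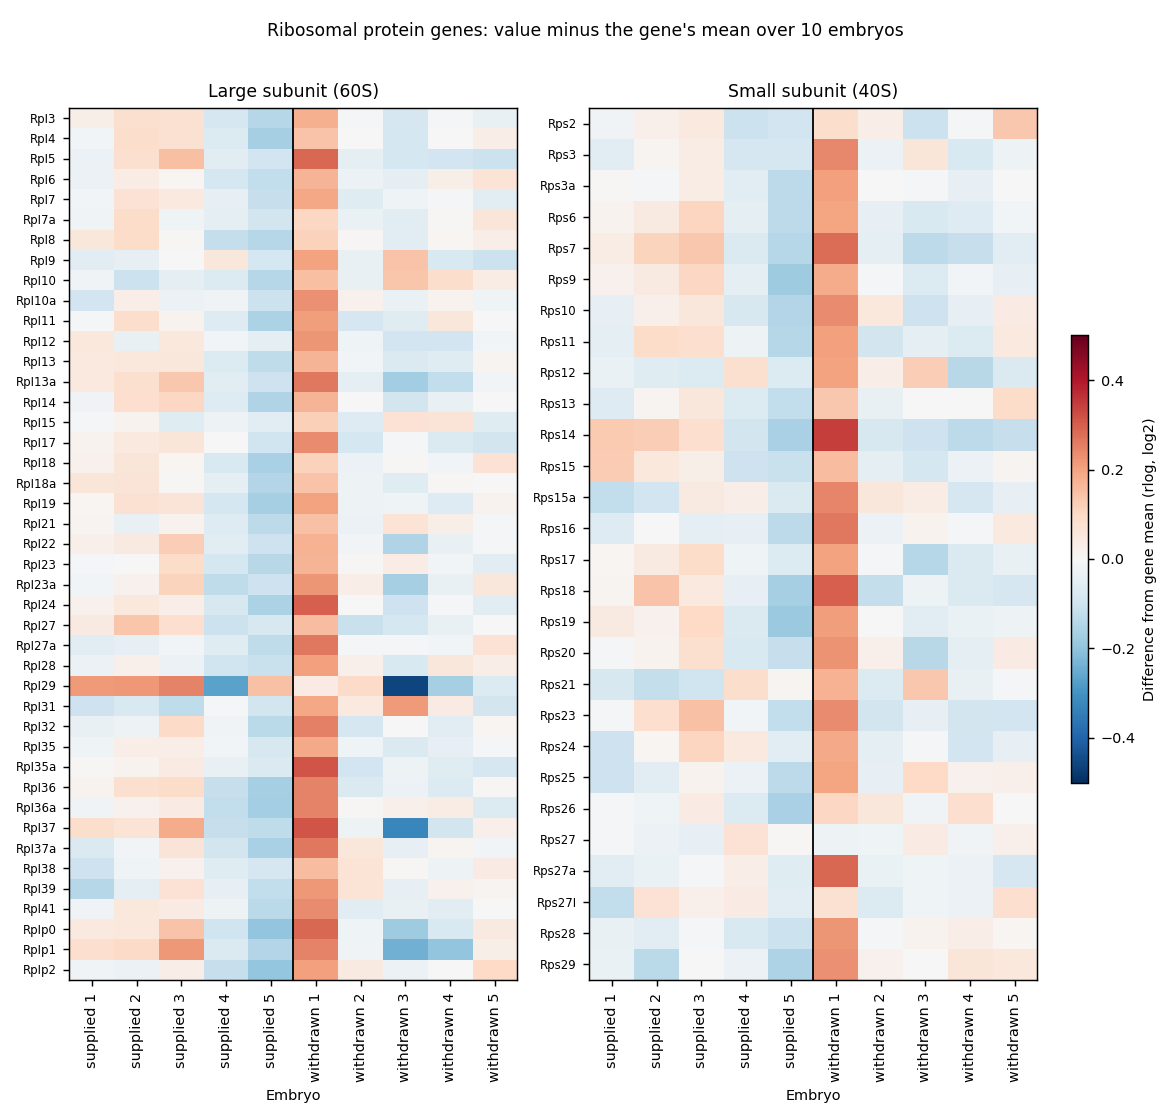
Each row is one of 71 ribosomal protein genes and each column an embryo, and colour gives the rlog value minus that gene's mean over the 10 embryos (log2, red higher, blue lower). The column of withdrawn embryo 1 is red in nearly every row, that of supplied embryo 5 is blue in most, and Rpl29 and Rps27 do not follow the other rows.

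Withdrawn embryo 1 had the highest value of the 10 embryos in 68 of the 73 genes, beside 13.0% of all genes. This held for 41 of 43 large subunit genes and 27 of 30 small subunit genes. Its values exceeded the mean of the other withdrawn embryos in 72 members, by a median of 0.23. Supplied embryo 5 had the lowest value of all in 48 members, and the share of all genes lowest there was not counted. The mean over the 73 genes was 12.81, 12.85, 12.87, 12.76 and 12.70 in supplied embryos 1 to 5. In withdrawn embryos 1 to 5 it was 13.02, 12.80, 12.77, 12.79 and 12.81. Apart from withdrawn embryo 1, the withdrawn means lay inside the supplied range. The group means were 12.80 ± 0.066 (SD, n = 5) and 12.84 ± 0.10 (SD, n = 5), a difference of 0.040 that is smaller than either SD. Without withdrawn embryo 1 the withdrawn mean was 12.79 ± 0.017 (SD, n = 4) and the difference was -0.0050. The remaining 4 withdrawn embryos thus lay closer together than the supplied ones, whose range was not tested against theirs.

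Some RNAs of a list on RNA quality and libraries were highest where these means were lowest, and others of that list were not. Rn45s is the gene of the ribosomal RNA precursor, and the share of its reads from mature ribosomal RNA was not tested. Its value was 21.19 in supplied embryo 4, 21.13 in supplied embryo 5 and 21.22 in withdrawn embryo 3. The other 7 had 20.56 to 20.90. Malat1, a nuclear non-coding RNA, was 17.76, 18.13 and 18.05 in those 3 embryos and 17.18 to 17.43 in the others. Neat1, another nuclear RNA, was 8.84, 8.94 and 8.99 against 8.25 to 8.52. The same 3 embryos had the lowest means over the ribosomal protein genes, and withdrawn embryo 1, with the highest mean, had the lowest Rn45s (20.56). Supplied embryo 1 had nearly the same Rn45s (20.58), with a member mean of only 12.81. Malat1 in withdrawn embryo 1 was 17.31, inside the range of the others. Lars2, of the same list, did not follow the means: it was 19.04, 19.0, 19.61, 19.37 and 19.29 in the supplied and 19.92, 19.68, 19.41, 19.59 and 19.83 in the withdrawn embryos. Its difference of 0.42 was the largest above 0 in the table, with an adjusted p of 0.865 in limma. Of the 14 genes of this list on RNA quality and libraries, 10 were above 0 (median 0.043), and 12 without withdrawn embryo 1 (median 0.12). Over the 3345 genes with the shortest transcripts in GENCODE M21, withdrawn embryo 1 lay a median of 0.031 above the gene means, and over the 3337 with the longest 0.039 below. The members' median deviation in that embryo was 0.21. The part of these RNAs and of transcript length in the members' values was not tested.

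**Figure D2:**
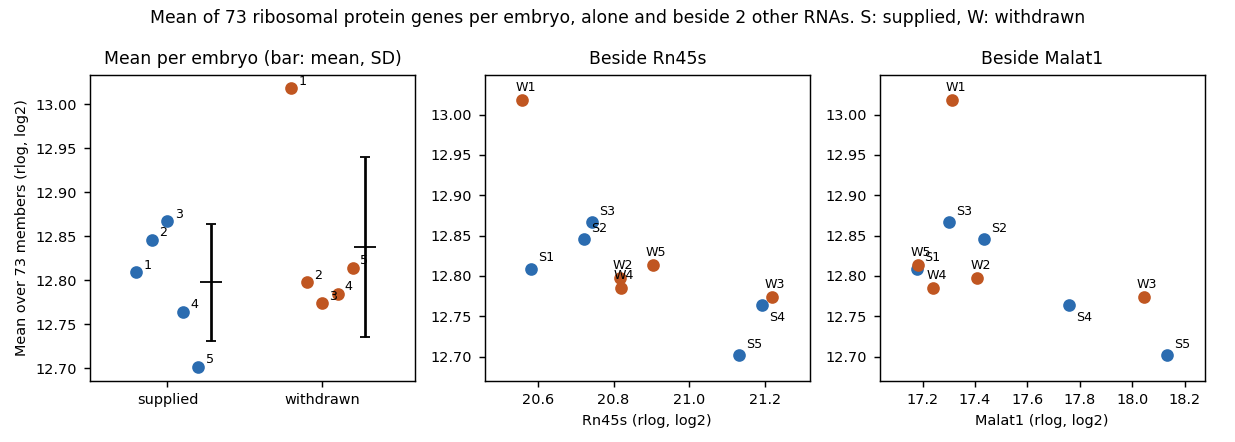
Points are embryos, blue for supplied (S) and orange for withdrawn (W), and the vertical axis is the mean rlog value over the 73 genes (log2). The left panel adds each group's mean with its SD, and the other panels place the same means beside Rn45s and Malat1 (rlog, log2). Withdrawn embryo 1 sits alone at 13.02, and supplied 4, supplied 5 and withdrawn 3 lie at the low end with high Rn45s and Malat1.

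Among the large subunit genes, Rpl10 and Rpl31 differed most in the higher direction. Rpl10, a late-joining protein close to the peptidyl transferase centre, was 12.97, 12.88, 12.94, 12.92 and 12.84 in the supplied embryos and 13.13, 12.95, 13.12, 13.07 and 13.02 in the withdrawn ones. All withdrawn values but that of embryo 2 lay above every supplied value. The difference was 0.15 ± 0.047 (SE), with an unadjusted p of 0.0053 and an adjusted p of 0.879 in limma. It was 0.13 without withdrawn embryo 1, so Rpl10 did not rest on that embryo.

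Rpl31, a protein at the rim of the exit tunnel for the growing chain, was 12.20, 12.23, 12.18, 12.30 and 12.21 in the supplied embryos. The withdrawn embryos had 12.50, 12.35, 12.52, 12.35 and 12.21. Withdrawn embryos 1 and 3 were highest, and embryo 5 lay among the supplied values. The difference was 0.16 ± 0.055 (SE), with an adjusted p of 0.90 in limma, and 0.13 without withdrawn embryo 1.

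Rpl27a, a core protein of the large subunit, was 13.13, 13.15, 13.17, 13.13 and 13.06 with vitamin C and 13.45, 13.18, 13.18, 13.17 and 13.26 without it. The groups did not overlap, although withdrawn embryos 2 to 4 came within a few thousandths of the highest supplied value. Its difference was 0.12 ± 0.055 (SE), with an adjusted p of 0.931 in limma, and 0.071 without withdrawn embryo 1. Non-overlapping groups were seen in 2 members, Rpl27a and Rps29, beside 0.810% of all genes. Rpl38, which mouse embryos need for the translation of some Hox messenger RNAs, ran from 11.21 to 11.33 in the supplied and from 11.29 to 11.46 in the withdrawn embryos. Its groups overlapped, and its difference of 0.098 fell to 0.072 without withdrawn embryo 1.

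Rpl29 went the other way and varied more than any other member. It is a heparin-binding protein that mice can live without, at the cost of growth. It was 14.27, 14.27, 14.30, 13.79 and 14.20 in the supplied embryos and 14.10, 14.15, 13.60, 13.89 and 13.99 in the withdrawn embryos. Supplied embryo 4 lay far below the other 4 supplied embryos and withdrawn embryo 3 was lowest of all. The groups overlapped only through supplied embryo 4. The difference was -0.22 ± 0.10 (SE), with an unadjusted p of 0.0453 and an adjusted p of 0.931 in limma. Without withdrawn embryo 1 it was -0.26, and without supplied embryo 4 it was -0.32 with an adjusted p of 0.628 in limma, the smallest of any member in that fit. Withdrawn embryo 1 was not high for Rpl29, in contrast to 68 other members.

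The large subunit genes named in this paragraph had differences within their spread, measured by the pooled SD of the groups. Rpl5 and Rpl11, which with the smallest ribosomal RNA bind Mdm2 when assembly fails, differed by -0.021 and 0.048. Rpl5 was 14.55, 14.66, 14.73, 14.53 and 14.49 in the supplied embryos, against 14.87 in withdrawn embryo 1 and 14.47 to 14.54 in the other 4. The 4 other withdrawn embryos lay below the supplied median, and the difference without embryo 1 was -0.096. Rpl3 of the peptidyl transferase centre differed by 0.016, Rpl4 of the tunnel wall by 0.034, Rpl15 by 0.053 and Rpl22 by -0.013. Rpl13a, which is released from the ribosome in interferon-treated myeloid cells, differed by -0.040, and Rpl37 by -0.040.

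The 3 proteins of the P stalk, which brings elongation factors to the ribosome, did not lie on one side. Rplp0, the base of the stalk, differed by 0.024 ± 0.081 (SE). Rplp1 differed by -0.071 ± 0.085 (SE), with values of 13.86, 13.87, 13.99, 13.70 and 13.63 in the supplied and 14.02, 13.76, 13.53, 13.58 and 13.80 in the withdrawn embryos. Its highest value was in withdrawn embryo 1, its lowest in withdrawn embryos 3 and 4, and the groups overlapped. Rplp2, its partner in the stalk, differed by 0.13 ± 0.056 (SE). It was 13.52, 13.51, 13.57, 13.42 and 13.34 with vitamin C and 13.75, 13.59, 13.51, 13.54 and 13.64 without. Embryos 3 and 4 of the withdrawn group lay among the supplied values. The adjusted p of Rplp2 was 0.928 in limma, and its difference was 0.093 without withdrawn embryo 1.

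In the small subunit, Rps29 had the smallest p. Rps29 is one of the smallest ribosomal proteins and binds zinc. It was 11.65, 11.55, 11.69, 11.66 and 11.53 in the supplied embryos and 11.92, 11.71, 11.69, 11.75 and 11.74 in the withdrawn ones. Withdrawn embryo 3 (11.691) was just above supplied embryo 3 (11.685), so the groups did not overlap. The difference was 0.14 ± 0.050 (SE), with an adjusted p of 0.90 in limma, and 0.11 without withdrawn embryo 1.

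Rps25, which several viral messenger RNAs need for internal initiation, ran from 11.46 to 11.61 in the supplied and from 11.55 to 11.79 in the withdrawn embryos. Rps28, next to the exit of the messenger RNA channel, was 11.75 to 11.85 with vitamin C and 11.85 to 12.07 without. For both genes withdrawn embryo 1 was highest and the groups overlapped. The differences were 0.12 ± 0.049 (SE) and 0.11 ± 0.048 (SE), each with an adjusted p of 0.928 in limma, and fell to 0.087 and 0.070 without withdrawn embryo 1. Without that embryo, 3 members were higher at an unadjusted p under 0.05, beside 3.04% of all genes, namely Rpl10, Rpl31 and Rps29. In that fit 1 was lower, Rpl29, beside 2.98% of all genes.

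Rps16 differed by 0.12 ± 0.054 (SE), beyond its pooled SD of 0.090, with an adjusted p of 0.931 in limma. Its difference was 0.065 without withdrawn embryo 1. The small subunit genes that follow in this paragraph had differences within their spread. Rps6, the substrate of the ribosomal S6 kinases, was 14.21, 14.23, 14.30, 14.14 and 14.06 in the supplied embryos and 14.38, 14.15, 14.11, 14.12 and 14.17 in the withdrawn ones. Its withdrawn embryos other than the first lay inside the supplied range, and the difference was 0.0012 ± 0.061 (SE). Rps14, one copy of which is lost in a human anaemia with a deleted chromosome arm, was 12.79 in withdrawn embryo 1 and 12.32 to 12.37 in the other withdrawn embryos. The supplied embryos had 12.58, 12.57, 12.53, 12.36 and 12.28. Its difference was -0.033 ± 0.084 (SE), and -0.12 without withdrawn embryo 1. Rps19, the gene most often mutated in Diamond-Blackfan anaemia, differed by 0.036. Rps2 and Rps3, at the entry of the messenger RNA, differed by 0.059 and 0.067.

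Rps27a, made as a fusion with ubiquitin, was 13.14, 13.16, 13.19, 13.23 and 13.13 in the supplied embryos, 13.48 in withdrawn embryo 1 and 13.11 to 13.17 in the other withdrawn embryos. The single high embryo gave a difference of 0.049, which was -0.017 without it.

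Rps27 and its paralog Rps27l stood apart by level. Rps27 was listed between 4.64 and 4.76, near the lowest value of the table (4.04), and had the smallest within-group SD of any member (0.038). Rps27l, which p53 can induce, lay between 7.97 and 8.18. The other 71 members had means from 11.1 to 14.7. Differences were -0.00012 for Rps27 and 0.016 for Rps27l, both within the spread. All windows of 50 bases of the coding sequence of Rps27 also occurred in transcripts of 9 other annotated genes. The one sharing the most windows was the retrogene Rps27rt, which had no row. Whether the reads of Rps27 were lost to such copies was not tested.

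**Figure D3:**
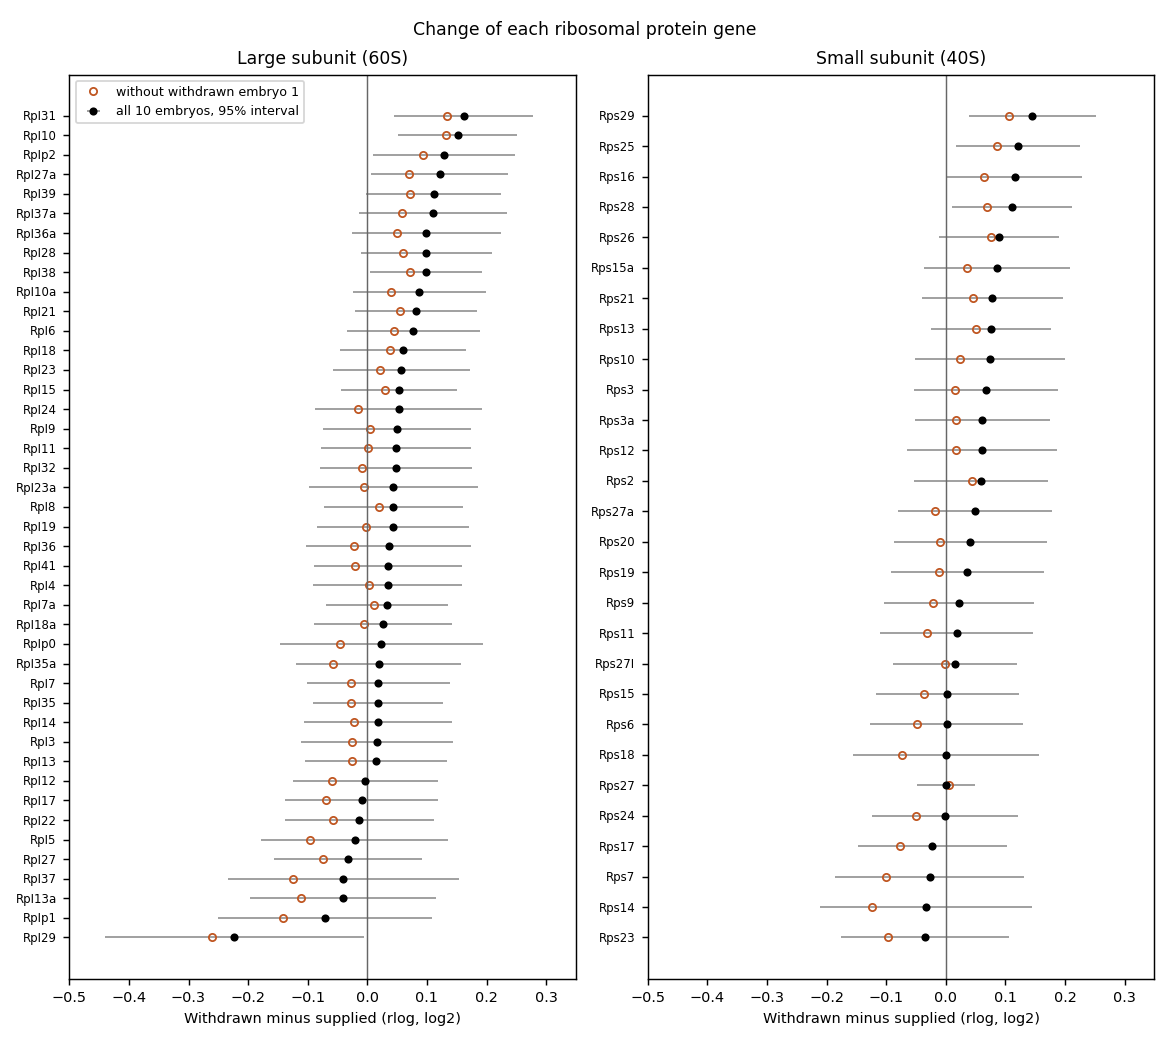
For each of 71 genes, the filled point is the difference in rlog value, withdrawn minus supplied (log2), with its 95% interval from limma, and the open orange point is the difference without withdrawn embryo 1. Most filled points lie to the right of 0 and most open points lie to their left, while Rpl29 is far to the left in both.

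Sequence shared with other genes limits how these values can be read. A median of 93.2% of the windows of 50 bases in a member's coding sequence were found in another annotated gene, mostly pseudogenes, in GENCODE M21. The share was over 50% in 62 members, and windows of Rpl7a occurred in 125 other genes. It was 8.09% for Rps3 and 8.73% for Rpl8. The sources used here do not say how such reads were counted, so the levels of the 62 are uncertain. The median difference was 0.043 in these 62 genes and 0.034 in the other 11, of which 10 were above 0.

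Start sites were taken from RefSeq (GRCm38.p6), where 54 of the 73 genes had an entry. The windows below run from 20 bases before the annotated start to 10 bases from it on, and are shown for some members only. Capitals mark a C at the start site with at least 4 further C or T after it, the form of the TOP motif. Windows with the motif are more frequent among those shown than among the 54. Those of Rps7, Rps12, Rps25 and Rps28, without the motif at the annotated start, are not shown.
Rps6 (chr4:86857358-86857387, minus strand): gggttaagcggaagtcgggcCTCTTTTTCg
Rpl15 (chr14:18270977-18271006, minus strand): ggattgtgggagaaagccttCTTCCTTTCC
Rpl38 (chr11:114668560-114668589, plus strand): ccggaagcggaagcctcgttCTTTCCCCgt
Rplp2 (chr7:141447631-141447660, plus strand): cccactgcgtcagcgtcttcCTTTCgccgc
Rps21 (chr2:180257359-180257388, plus strand): gcacttaccgaggacccgccCTCCTgccca
Rps27 (chr3:90213639-90213668, minus strand): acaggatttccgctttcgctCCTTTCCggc
Rpl31 (chr1:39367831-39367860, plus strand): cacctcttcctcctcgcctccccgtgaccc
Rpl27a (chr7:109519175-109519204, plus strand): cgcgagacttcgtgagctcctcccttttcc
Rpl10 (chrX:74270796-74270825, plus strand): ctatggttgttacagtggaagataggccgc

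The run began at the annotated start in 13 of the 54 genes (24.1%), against 813 of 27025 genes in the RefSeq table (3.01%), searched on the gene's own strand. A run of at least 8 C or T anywhere in the window, which can overlap the first motif, was found in 26 members (48.1%) and in 14.5% of all genes. Rpl31 and Rpl27a have such a run in the window without the motif at the annotated start, and Rpl10 has neither. The call rests on the annotated first base, and whether transcription starts there was not tested. The other 41 genes are thus not shown to lack the motif. The median difference was 0.053 in the 13 genes with the motif at the annotated start and 0.049 in these 41. Rps6 and Rps21 both carry the motif, and they varied among the embryos in different ways, as follows.

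Ribosomal protein genes varied together between embryos. After the group means were removed, the correlation over the 10 embryos had a median of 0.78 among the 2628 pairs of members, and 123 pairs (4.68%) were below 0. All pairs share the same 10 libraries, and withdrawn embryo 1 carries much of the correlation. Without it the median was 0.60, with 391 pairs (14.9%) below 0. Against the mean of the other 72 genes, 38 members had a correlation over 0.9. Rps7 and Rps6 were among the closest to that mean, both at 0.99, and had 0.98 and 0.99 without withdrawn embryo 1.

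A few members did not follow the mean. Rps27 ran against it (-0.50), but its values lay near the lowest of the table, with a within-group SD of only 0.038. Rps21 (0.13), Rpl31 (0.21), Rps12 (0.42) and Rpl29 (0.43) followed the mean weakly. Without withdrawn embryo 1, Rps21 (-0.66), Rpl31 (-0.35) and Rps12 (-0.24) ran opposite to it over the remaining 9. Rps21, a small subunit protein, was 11.04, 11.02, 11.21 and 11.13 in supplied embryos 1, 3, 4 and 5, lowest of all in supplied embryo 2, and 11.29, 11.05, 11.25, 11.08 and 11.11 in the withdrawn ones. It was thus high in supplied embryo 4 and withdrawn embryo 3, where most members were low. Rps12, also of the small subunit, was likewise higher in supplied embryo 4 (12.11) and withdrawn embryo 3 (12.16) than in the other embryos except withdrawn embryo 1 (12.24).

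In a decomposition of the members' values after removal of each gene's mean over all embryos, the first axis held 68.5% of the variance and the second 16.5%. The group means were not removed here, so differences between supplied and withdrawn embryos remain in both axes. On the second axis Rpl31, Rps21, Rpl10, Rpl9, Rps25 and Rps12 stood at one end and Rpl29, Rpl37, Rplp1 and Rpl13a at the other. Withdrawn embryo 3 had the highest score there (0.72), and supplied embryos 1 to 3 the lowest (-0.40 to -0.37), followed by supplied embryo 5 (-0.25). The withdrawn embryos ran from -0.048 to 0.72, and of the supplied embryos only embryo 4 (0.21) lay among them. Fos, an immediate early gene that cell handling can induce, was 12.59 in supplied embryo 4 and 12.50 in withdrawn embryo 3, against 9.81 to 11.70 in the other 8. Fos did not follow the axis in every embryo: withdrawn embryos 1 and 4, with scores of 0.35 and 0.20 beside 0.21 for supplied embryo 4, had Fos at 10.41 and 10.70. Its part in this axis was not tested.

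**Figure D4:**
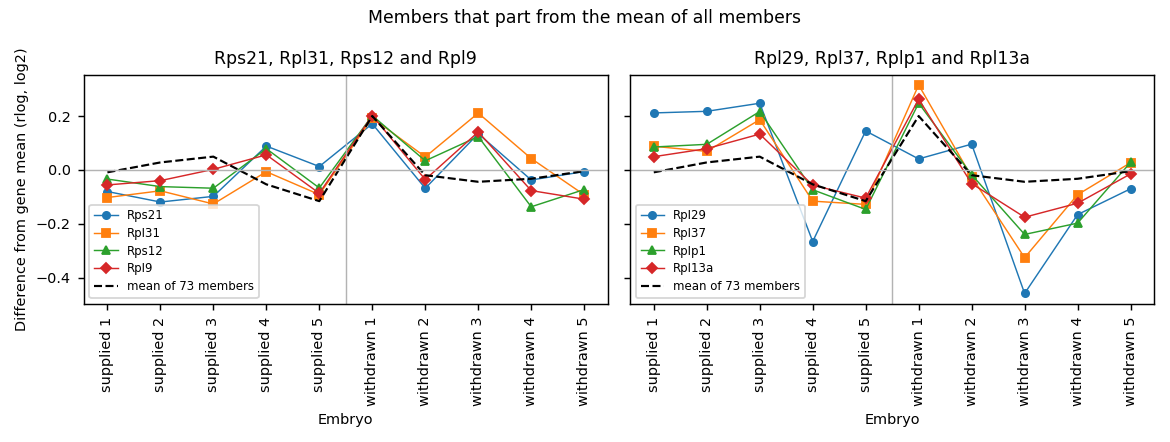
Lines give the rlog value minus the gene's mean over the 10 embryos (log2) for 4 genes from each end of the second axis, and the dashed line is the mean of all 73 genes. In withdrawn embryo 3 the genes on the left are above the dashed line and those on the right below it, while both sets are high in withdrawn embryo 1 except for Rpl29.

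Among genes outside the rule, 2010107E04Rik (r = 0.97 with the members' mean after removal of the group means, 10 embryos), Eef1a1 (0.97), Adam10 (0.96), Cbr1 (0.96), Erp29 (0.96) and Gnb2l1 (0.95) had the most similar pattern. Eef1a1 encodes the elongation factor that delivers aminoacyl-tRNA. It was 16.35, 16.42, 16.45, 16.29 and 16.16 in the supplied embryos and 16.61, 16.36, 16.33, 16.34 and 16.31 in the withdrawn ones. Gnb2l1, also called Rack1, is itself a protein of the small subunit whose symbol the rule does not match. It was highest in withdrawn embryo 1 (14.00) and lowest in supplied embryo 5 (13.68). Its correlation was 0.98 without withdrawn embryo 1, the highest of any gene outside the rule. None of the other genes just named was among the 6 closest without that embryo.

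Other genes of translation were read from lists. Among related rows outside the rule, 9 of 12 had a row, and 8 of these 9 were highest in withdrawn embryo 1. They include Rpsa, Fau and Rps4x. None of the 9 passed an unadjusted p of 0.05 in either direction. Their median difference was 0.029 with all embryos and -0.0097 without withdrawn embryo 1. A fixed list of elongation factors and other RNAs known for the TOP motif had 12 of 22 above 0 and a median of 0.0080. It had 0 at an unadjusted p under 0.05 in either direction. The motif was not checked gene by gene in this list. Of the 22, 7 were highest in withdrawn embryo 1, beside 13.0% of all genes, and the list's mean was highest there too (12.82, against 12.65 to 12.77 in the other embryos). Within this list Eif3f differed by 0.090, Btf3 by 0.087 and Eef2 by 0.067, none past the threshold.

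Genes that make, start or watch over ribosomes lay near 0. Of 24 initiation factors, 9 were above 0 with none at an unadjusted p under 0.05, and Eif4e, which binds the cap, differed by -0.099. Of 85 biogenesis factors, 39 were above 0 (median -0.0028). At an unadjusted p under 0.05, 1 was higher, beside 2.45% of all genes, and 0 were lower, beside 2.84%. The higher one was Imp4 of the small subunit processome, at 0.12. Of 14 genes of RNA polymerase I and its factors, 5 were above 0. Among these 14, 1 was lower at an unadjusted p under 0.05, the subunit gene Polr1e (-0.13), beside 2.84% of all genes. None of 19 regulators, Mtor, Larp1 and Myc among them, had an unadjusted p under 0.05. Without withdrawn embryo 1, 3 of them did, beside 3.04% of all genes: Tsc1 (0.090), Sp1 (0.091) and Larp1 (0.096), all higher. Of 12 genes around Mdm2 and the check on ribosome assembly, 3 were above 0. At an unadjusted p under 0.05, 1 of the 12 was lower, Mdm2 (-0.096), beside 2.84% of all genes. With all embryos the adjusted p in limma was 0.90 or more for every gene of these lists.

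Mitochondrial ribosomal proteins serve another ribosome. Of 76 such genes 33 were above 0, with a median of -0.0086. At an unadjusted p under 0.05, 2 of the 76 were higher (Mrps18a and Mrpl35), beside 2.45% of all genes. Another 2 were lower (Mrps15 and Mrpl47), beside 2.84% of all genes. The mean over the 76 was 8.81 ± 0.038 (SD, n = 5) in the supplied and 8.80 ± 0.044 (SD, n = 5) in the withdrawn embryos. Withdrawn embryo 1 had the highest value in 18 of the 76, beside 13.0% of all genes and 68 of the 73 cytosolic genes. The mean over the 76 was also highest there (8.86, next 8.85 in supplied embryo 2) and lowest in supplied embryo 4 and withdrawn embryo 3 (8.76 in both). The difference between the 2 sets was not tested.

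**Figure D5:**
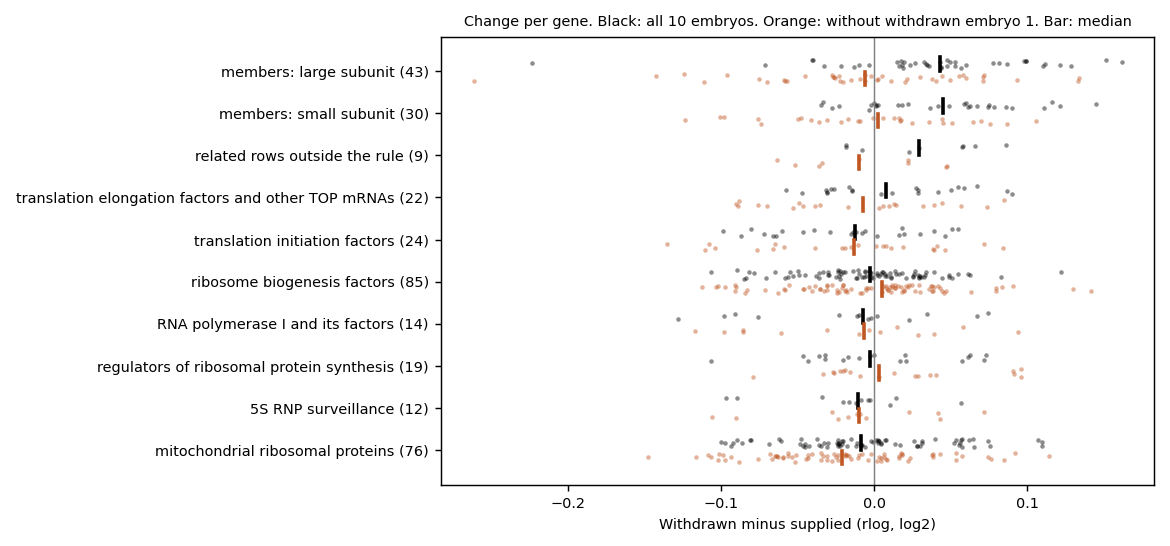
Each point is a gene, the horizontal axis is its difference in rlog value, withdrawn minus supplied (log2), and bars are medians. Black is all 10 embryos and orange is without withdrawn embryo 1. The medians of both subunits move from 0.043 and 0.045 to -0.0059 and 0.0026, while those of biogenesis factors and mitochondrial ribosomal proteins move from -0.0028 and -0.0086 to 0.0051 and -0.021.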

How the data were processed

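Total RNA of sorted gonadal somatic cells was made into low-input libraries, per the labels' protocols. The authors deposited 1 table of rlog values (log2 scale), and the submitters' processing notes name Trim Galore 0.4.0, TopHat2 2.1.1, DESeq2 1.20.1 and the build mm9. The counter and its use of strand are not given in the sources used here. All 10 columns matched a sample title. Groups came from the treatment label. Each gene was fitted with limma 3.58.1 (R 4.3.3), with a variance trend and Benjamini-Hochberg adjustment over 13578 genes, tested on simulated data first. A minimum mean of 3 removed 0 genes. The members and lists were chosen with earlier results of these data known. Members were described in full if they had one of the 8 smallest p-values, one of the 4 largest differences in a direction, an extreme SD or a well-known role, 27 in all. Rps7, Rps12, Rps16, Rps21, Rpl7a, Rpl8 and Rpl9 were added after their values were seen, as were Rn45s, Malat1, Neat1, Lars2 and Fos. Some genes are counted in the totals but not reported by name here. GENCODE M21 and RefSeq, on another build, gave only lengths, shared sequence and start windows. Alternatives were another minimum, no trend, robust variance, centring, quantile normalization, sample weights, a replicate block, averaging by title number and leaving out each embryo.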

Additional observations from a re-analysis of the deposited data

Results flagged for a closer look

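Values were examined in 60 groups of 5 embryos, 30 quantities in each group. In 12 of them the highest or lowest embryo was separated from its neighbour by more than 0.71 of the group's range. Chance gives this in about 5% of groups, and the quantities share the same embryos, so the 12 are not independent. In 11 of the 12 the embryo was withdrawn embryo 1, above the other 4 withdrawn embryos. It had 11.92 for Rps29, 12.07 for Rps28, 12.79 for Rps14, 14.50 for Rpl3, 14.87 for Rpl5, 14.38 for Rps6, 12.83 for Rps19 and 13.48 for Rps27a. Its mean was 13.02 over all members, 13.37 over the large subunit and 12.51 over the small subunit. The other case was Rpl29 in supplied embryo 4, which at 13.79 lay below the other 4 supplied embryos.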

How the results depend on the processing

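No member passed the adjusted threshold under any of the 19 alternatives, and the smallest adjusted p of a member in limma was 0.470, for Rpl31 without withdrawn embryo 5. Members higher at an unadjusted p under 0.05 numbered 9 with all embryos, 3 after quantile normalization (2.61% of all genes in that fit), 5 with sample weights (3.11%), 12 with averaging of embryos 2 and 3 of each group, which share a title number (1.77%), and 3 to 11 when each embryo was left out (1.71% to 3.08%). It was 3 without withdrawn embryo 1 or supplied embryo 5, 4 without supplied embryo 4 and 5 without supplied embryo 1. Members lower numbered 0 without the variance trend, with robust variance and with that averaging (2.70%, 2.64% and 2.52% of all genes), and 0 to 1 without single embryos (2.30% to 3.30%). Members above 0 ranged from 35 to 65 when single embryos were left out, beside 49.7% to 50.6% of all genes. The lowest count came without withdrawn embryo 1. Averaging gave 70 above 0, beside 50% of all genes, and a median of 0.068, the largest of any alternative. It merges embryos 2 and 3 of each group, so withdrawn embryo 1 weighs more in its group's mean. The median was 0.023 after quantile normalization and 0.022 with sample weights. With single embryos left out, medians ranged from -0.0022 to 0.057 over all members, -0.0059 to 0.060 in the large subunit and 0.0026 to 0.060 in the small. With a replicate block, 6 members were higher (1.93% of all genes) and 1 lower (2.53%) at an unadjusted p under 0.05, 57 were above 0, and none passed the adjusted threshold. The correlation of embryos sharing a replicate number ran from -0.36 to 0.17, and only the pair numbered 1 correlated best with its own number, so the numbers were not taken as pairs.

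Of the 27 named members, 14 kept the sign of their difference under all alternatives. The same averaging turned Rpl13a (0.0044), Rpl37 (0.026), Rps14 (0.0072), Rpl5 (0.019) and Rpl22 (0.025). Sample weights turned Rpl3 (-0.00079), Rplp0 (-0.0073) and Rps6 (-0.021), quantile normalization turned Rps6 (-0.023) and Rps27 (0.0020), and median centring turned Rps27 (0.00061). When each embryo was left out, the difference ran from -0.12 to 0.036 for Rpl37, from -0.011 to 0.018 for Rps27, from -0.026 to 0.039 for Rpl3, from -0.0031 to 0.060 for Rpl4 and from -0.096 to 0.013 for Rpl5. It ran from -0.058 to 0.023 for Rpl22, from -0.045 to 0.071 for Rplp0, from -0.048 to 0.028 for Rps6, from -0.011 to 0.066 for Rps19, from -0.017 to 0.076 for Rps27a and from -0.013 to 0.036 for Rps27l. The cause of these turns was not tested. Depth is unknown, and the rlog scale understates differences of weak genes such as Rps27.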
